A study of Drosophila melanogaster with 2 samples.

Results

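The genes described are 40 helix-loop-helix (HLH) transcription factor genes of Drosophila melanogaster, nearly all of the basic helix-loop-helix (bHLH) family, and all lie outside the Enhancer of split complex. They were chosen by name, with earlier results of these data known. All 40 names matched a protein-coding gene among the 13945 on the 6 chromosome arms of the Ensembl annotation. Chromatin immunoprecipitation and sequencing (ChIP-seq) located the fork head domain protein fd102C in whole embryos of mixed sex that were 2 to 6 h old, going by the source name. They came from the transgenic strain fd102C-GFP, which stably expresses fd102C with GFP at its C-terminal end. The promoter that drives the transgene is not given in the sources used here. There is 1 group with 2 biological replicates, and hence no contrast between conditions. The labels' description calls both samples input control, while the assay and antibody fields name ChIP-seq for fd102C, and both were treated as ChIP. Embryos of many stages and cell types were pooled, so a peak cannot be given to a cell type, and a peak does not show that the gene beside it responds.

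A bHLH protein grips DNA with its basic region and pairs with a partner through its helix-loop-helix. Most pairs bind variants of the E-box, CANNTG. In the fly embryo, tissue-specific members such as the proneural proteins pair with the broadly expressed Daughterless (da), and Extramacrochaetae (emc), which has no basic region, takes up these partners in pairs that do not bind DNA. Other members carry a PAS domain, a leucine zipper or an Orange domain, and act in oxygen, hormone, circadian, growth and nutrient responses.

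The peak lists give a summit and a signal for each peak. The authors' thresholded list holds 2031 pooled peaks set by a reproducibility threshold, and the pooled list holds 30000 peaks, background included. The lowest thresholded signal was 125.7, the same as the highest pooled signal below the threshold. At the summits mapped here, the thresholded ones were those of pooled rank 2031 or better. A listed summit therefore need not rank high in both replicates. A summit was assigned to a gene when it lay in the gene span widened by 5 kb on each side, or, more narrowly, within 1 kb of an annotated transcription start site (TSS). Rank 1 is the highest signal of a list, and the signal is the authors' own value, on a scale that the sources used here do not state.

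The share of these 40 genes with a thresholded summit in or near the gene lay close to that of all genes. Few of these summits were strong. Of the 40 genes, 9 held a thresholded summit in the widened span (22.5%, 95% Wilson interval 12.3 to 37.5%), where all protein-coding genes gave 23.9%. Within 1 kb of a TSS the count was 3 of 40 (7.5%), against 9.08% of all protein-coding genes. The 9 genes were emc, sc, l(1)sc, net, sima, tai, crp, Myc and Mnt, with 11 summits in all, and the 3 with a summit at the TSS were emc, net and crp. The median signal of the 11 summits was 145.3, against 181.3 over the thresholded list, and 2 of them, at crp and tai, were among the 1016 highest peaks. Both shares lie near the background. Of 8 further bHLH genes, listed further below, 5 held a thresholded summit in the widened span. The shares here thus describe the 40 chosen genes and not the whole family. Assigning each summit to the nearest protein-coding TSS also gave 9 of the 40 genes (22.5%), with Clk in place of sima, but the share of all protein-coding genes was then 10.6%. The stretch of chromosome nearest to a gene's TSSs had a median of 9.07 kb for the 40 genes and 4.24 kb for all protein-coding genes, and its part in that difference was not tested.

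Sequences under 5 of the 11 summits, and under 1 further summit outside the widened span of Myc, are shown on the plus strand of dm6, from RefSeq's copy of that assembly. They were picked to show the highest summit, those at a TSS and matches to the fork head motif, and of the other 6 summits 5 had no such match within 100 bp. Capitals mark matches to the fork head consensus on either strand, that is ATAAACA, with C or T as its sixth base (hence also ATAAATA) and A or G as its first (hence also GTAAACA and likewise GTAAATA). The first is the highest summit of any of the 40 genes, in an intron of crp. The others are the summit near the crp start, the summits upstream of net and downstream of Myc, a summit far upstream of Myc, and the stretch of the emc peak that lies before its TSS. Each window reaches 80 bp to each side of the summit, except at emc, where the summit itself lies past the TSS.
crp intron, chr2L:16285819-16285979, plus strand: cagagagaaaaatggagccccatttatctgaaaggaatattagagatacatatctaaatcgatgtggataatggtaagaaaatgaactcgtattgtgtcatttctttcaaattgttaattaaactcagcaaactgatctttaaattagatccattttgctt
crp start, chr2L:16287785-16287945, plus strand: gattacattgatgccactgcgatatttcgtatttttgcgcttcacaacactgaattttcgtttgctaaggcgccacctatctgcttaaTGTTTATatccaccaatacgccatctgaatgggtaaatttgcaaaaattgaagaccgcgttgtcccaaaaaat
net upstream, chr2L:87544-87704, plus strand: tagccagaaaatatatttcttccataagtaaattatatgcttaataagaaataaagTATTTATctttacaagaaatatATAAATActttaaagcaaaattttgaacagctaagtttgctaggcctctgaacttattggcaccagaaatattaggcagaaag
Myc downstream, chrX:3394276-3394436, plus strand: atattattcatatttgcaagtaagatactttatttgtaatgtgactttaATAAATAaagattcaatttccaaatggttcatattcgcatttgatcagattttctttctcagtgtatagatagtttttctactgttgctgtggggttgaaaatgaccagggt
Myc far upstream, chrX:3354545-3354705, plus strand: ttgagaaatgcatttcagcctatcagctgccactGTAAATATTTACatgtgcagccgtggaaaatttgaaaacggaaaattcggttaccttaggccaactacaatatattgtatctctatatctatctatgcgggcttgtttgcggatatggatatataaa
emc promoter, chr3L:749295-749399, plus strand: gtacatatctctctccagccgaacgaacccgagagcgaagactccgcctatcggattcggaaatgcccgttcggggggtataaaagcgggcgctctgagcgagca

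The crp intron and the emc promoter hold no match, net and the window far upstream of Myc hold 2 each, and the other windows 1 each. The 2 matches far upstream of Myc overlap.

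Gene length went with the count of genes that held a summit. The genes with a thresholded summit had a median span of 18.5 kb and the other 31 a median of 2.84 kb. Among genes whose widened span was under 15 kb, 4 of 23 members held a thresholded summit, while the share of all protein-coding genes of that length was 20.3%. Between 15 and 30 kb it was 1 of 8 members against 31.2%, and over 30 kb 4 of 9 members against 43.8%. The middle class lay furthest from the share of all genes, and with 8 and 9 members the 95% Wilson intervals of both longer classes are wide, at 2.24 to 47.1% and 18.9 to 73.3%.

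**Figure D1:**
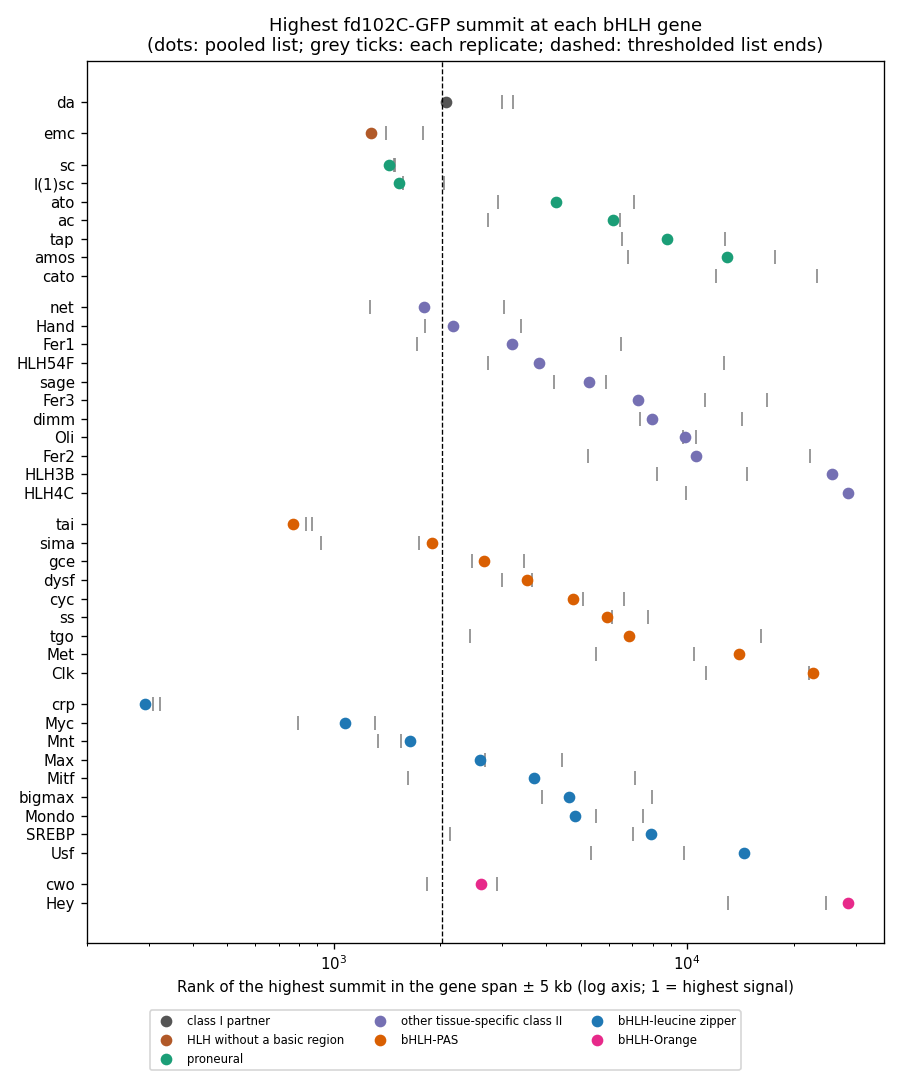
Rank of the highest summit in the widened span of each of the 40 genes, on a log axis, by protein class. Dots give the pooled list and grey ticks each replicate's list, and the dashed line marks rank 2031. The dots of 9 genes lie left of the line, from crp at rank 293 to sima at 1898, and cato has no dot because it held no pooled summit.

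The E protein da and its inhibitor emc stood on different sides of the threshold. At emc a thresholded summit (rank 1274, signal 160.0) lay 75 bp past the TSS, in an untranslated region. It ranked 1441 in replicate 1 (signal 89.6) and 1787 in replicate 2 (signal 61.1), so both replicates hold it among their 2031 highest peaks. emc lies whole within the span of hng3, a gene on the other strand. At da the highest summit (pooled rank 2084, signal 124.1) fell short of the threshold, and it lay 168 bp from the TSS of its neighbour Cdk1, which encodes the mitotic kinase, and 1675 bp from that of da. It ranked 3212 in replicate 1 (signal 60.9) and 3461 in replicate 2 (signal 44.7). The next summit of da, at rank 2962, lay 89 bp before its own TSS.

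emc stood out by the number of weaker summits around it, a feature singled out after its values were seen. The pooled list had 18 summits in the 14.1 kb of its widened span, or 12.8 per 10 kb, while the median of all protein-coding genes was 2.54 and that of the 40 genes 3.32. No other of the 13945 protein-coding genes had a higher density, and CG3349 came next with 12.5. In replicate 1 the density at emc was 12.1 and 1 gene was higher, and in replicate 2 it was 12.1 and 2 genes were higher. In the pooled list no gene was higher with 10 kb on each side either, but 25 genes were higher with 2 kb and 334 with the gene alone. In the thresholded list emc had 1 summit in its widened span, or 0.71 per 10 kb, and 2241 genes had a higher density. Of the 18 summits, 7 lay before the TSS, 5 in the gene and 6 past its 3' end, and neighbouring summits were 200 to 1749 bp apart. Only 8 ranked 10000 or better, so 10 of them lie deep in a list that includes background, and a control was not analysed here. Beyond the widened span, 2 stronger thresholded summits lay 6868 bp (rank 237, signal 355.7) and 9054 bp (rank 675, signal 224.5) past the 3' end of emc, in intergenic sequence and nearer to the TSS of hng3.

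The proneural class is named for genes that give cells the competence to become neural. Of the 7 genes placed in it here, sc and l(1)sc held a thresholded summit and none had one at its TSS. Both genes belong to the achaete-scute complex on X, where ac, sc, l(1)sc and ase lie in a row within the span of CG32816. The summit at sc (rank 1438, signal 150.6) lay 4075 bp past its 3' end. It ranked 1481 in replicate 1 (signal 88.2) and 1492 in replicate 2 (signal 65.9). The summit at l(1)sc (rank 1527, signal 145.3) lay 2094 bp before its TSS, ranking 2053 in replicate 1 (signal 74.6) and 1568 in replicate 2 (signal 64.5). The former was among the 2031 highest peaks in both replicates and the latter in replicate 2 alone, and both lay in introns of CG32816 rather than at a proneural promoter. The whole stretch from ac to ase with 5 kb on each side, 103 kb, had 47 pooled summits and 3 thresholded ones. The third (rank 1366) lay 2736 bp from the TSS of ase, which acts in neural precursors, and had 2 fork head matches, while the summits at sc and l(1)sc had none.

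The other genes of the proneural class ranked lower. The highest pooled summit had rank 4260 at ato, which founds chordotonal organs and photoreceptors, 6189 at ac, 8799 at tap, a neurogenin relative, and 12928 at amos, which acts in olfactory sensilla. cato, which acts in sensory neurons, was the single one of the 40 genes with no pooled summit in its widened span. Its highest summit ranked 23360 in replicate 1 and 12042 in replicate 2, which is deep in both lists.

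Of the other 11 tissue-specific genes, 1 held a thresholded summit. This was net, whose product keeps wing vein fate out of intervein cells. The summit (rank 1796, signal 133.6) lay 237 bp before its TSS, with fork head matches centred 21 bp to the left of the summit and 1 bp to its right. It ranked 1269 in replicate 1 (signal 95.3) and 3027 in replicate 2 (signal 47.2), so replicate 2 alone would not have placed it among 2031 peaks. Hand, a gene of the heart and its neighbouring cells, came close with a summit of rank 2182 that lay 85 bp from the TSS of Ufd4. Fer1 had rank 3189 at 769 bp before its TSS, and this summit was high in replicate 2 (rank 1722, signal 61.9) and low in replicate 1 (rank 13066, signal 35.8). For HLH54F, a gene of the longitudinal visceral muscle founders, the best was rank 3819. The rest of this class ranked from 5274 at sage, a salivary gland gene, through Fer3 at 7270 and dimm, a neuroendocrine gene, at 7970. Then came Oli at 9875, Fer2 at 10597, HLH3B at 25730 and HLH4C at 28601. The summits of sage, Fer3 and Fer2 lay 169, 101 and 65 bp from the TSSs of Ibf1, CG18765 and CG5916, in that order.

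Among the 9 bHLH-PAS genes tai and sima held a thresholded summit. tai encodes a coactivator of steroid hormone receptors, and its summit (rank 769, signal 209.8) lay in an intron, 14139 bp from the nearest of its TSSs. It ranked 866 in replicate 1 (signal 114.6) and 833 in replicate 2 (signal 90.7), so the replicates placed it alike. sima encodes the fly counterpart of the hypoxia-inducible factor alpha subunit. Its thresholded summit (rank 1898, signal 130.0) lay 1557 bp before its TSS and 105 bp from the TSS of Rpp14a, and the widened spans of 7 protein-coding genes contain it. This summit ranked 923 in replicate 1 (signal 110.3) and 22351 in replicate 2 (signal 20.9). A second summit, in an intron of sima 1561 bp before an internal TSS, did the reverse, with rank 26686 in replicate 1 (signal 26.9) and 1741 in replicate 2 (signal 61.6). sima is thus reached by the 2031 highest peaks of each replicate, but at different places.

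The other PAS genes had no thresholded summit. gce, one of the juvenile hormone receptor genes, had its highest at rank 2665, 22 bp from the TSS of Top1, while Met, the other, had rank 14012. dysf, a gene of tracheal fusion cells, had ranks 3517 in an intron and 3988 at 439 bp before its TSS. cyc and Clk, whose products form the circadian activator, had ranks 4770 and 22726. ss, a dioxin receptor relative of antenna and leg, had 5948, and tgo, the shared partner of PAS proteins in the embryo, 6834.

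The leucine zipper class held the highest summit and 5 of the 11, at 3 of its 9 genes. Its median gene span was 18.5 kb, against 3.67 kb over the 40 genes. At crp, an AP-4 relative that acts in tracheal branching, the intron summit (rank 293, signal 330.7) lay 1831 bp past the TSS. It ranked 322 in replicate 1 (signal 179.9) and 309 in replicate 2 (signal 143.2), which makes it the best placed summit of the 40 genes in each list. The other crp summit (rank 1818, signal 132.7) lay 135 bp before the TSS and ranked 1489 in replicate 1 (signal 87.9). In replicate 2 no summit lay within 100 bp of it, and the nearest was 104 bp away, at rank 2476. Mnt, which encodes the repressor that competes with Myc for their partner Max, had a summit 2870 bp past its 3' end (rank 1646, signal 139.9) and one in an intron (rank 1923, signal 129.2). The former ranked 1687 and 1857 in replicates 1 and 2 (signals 82.7 and 59.7), and the latter 3652 and 1335 (signals 57.7 and 69.8). The intron summit of Mnt was the lowest of the 11 inside the threshold, and a summit 3732 bp before the TSS of emc, at rank 2062, was the first outside it.

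By nearest protein-coding TSS, Myc had the most thresholded summits of the 40 genes, most of them beyond the widened span. This feature was also singled out after its values were seen. In the widened span crp and Mnt held more, with 2 each. Myc drives growth and ribosome production. Within the span lay 1, at 2659 bp past its 3' end in an intron of CG12535 (rank 1079, signal 175.2), with rank 1310 in replicate 1 (signal 93.8) and 792 in replicate 2 (signal 92.6). When each summit went to the nearest protein-coding TSS, Myc had 6, and 9 of the 1472 genes so reached, Myc included, had as many or more. The largest number was 8 and the median 1. The further 5 lay 5658, 14098, 17731 and 18534 bp before its TSS, with ranks 1090, 1323, 1461 and 825, and 5299 bp past its 3' end, with rank 1288. Each of those before the TSS had an annotated TSS of a gene that is not protein-coding nearer to it, at 3815, 4625, 7028 and 6225 bp, in that order. Over the 6 summits the ranks ran from 711 to 2083 in replicate 1 and from 792 to 1042 in replicate 2, so all 6 were among the 2031 highest peaks of replicate 2. Within 100 bp of the summit 3 of the 6 held a fork head match, 6 an E-box and none the palindrome CACGTG, where the shares over the thresholded list were 43.1%, 63.3% and 2.07%. These 6 summits are too few to set Myc apart by its motifs. Myc has a wide territory, since the next protein-coding TSS is 39.3 kb away upstream, at dnc, and 62.6 kb downstream, and counts by nearest TSS were not corrected for that width. The Myc TSS itself had a summit 105 bp before it at pooled rank 3547, which did not pass the threshold.

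**Figure D2:**
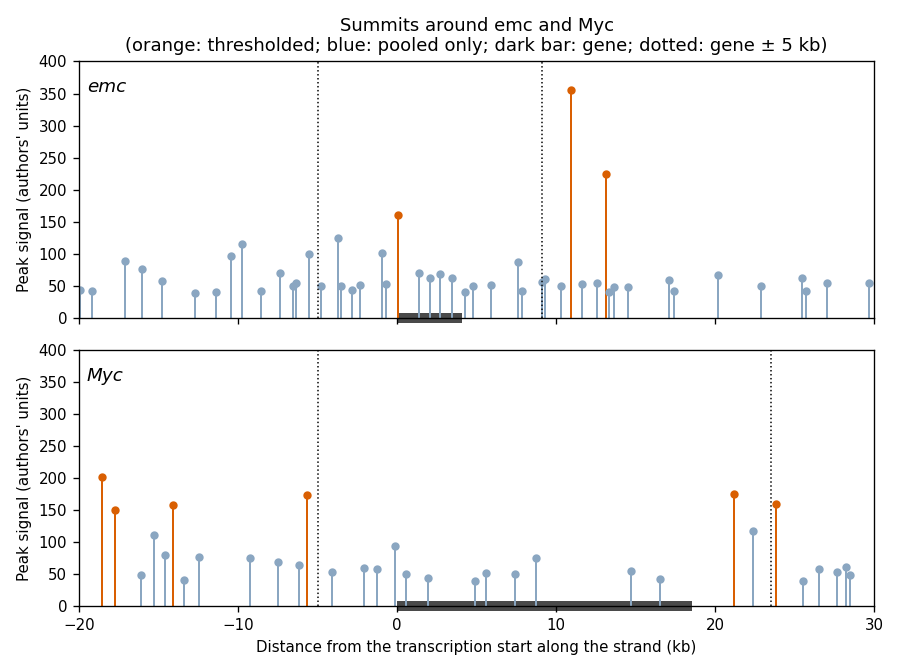
Pooled summits from 20 kb before to 30 kb past the TSS of emc and Myc, with distance along the strand on the horizontal axis and the authors' peak signal on the vertical axis. Orange points are thresholded (3 of 49 at emc, 6 of 32 at Myc), blue points are in the pooled list alone, and dotted lines bound the span widened by 5 kb. At both genes the majority of orange points lie outside the dotted lines.

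The other leucine zipper genes stayed below the threshold. Max had rank 2592, at 147 bp before its own TSS and 73 bp from that of Mettl5. Mitf, which acts in lysosome biology, had rank 3689 at 192 bp past its 3' end, a summit that ranked 1626 in replicate 2 and had no counterpart within 100 bp in replicate 1. bigmax and Mondo, whose products pair in the response to sugar, had ranks 4632 and 4827. SREBP, a regulator of lipid synthesis, had 7879 and Usf 14439. The summits of bigmax and SREBP lay 100 and 937 bp from the TSSs of CG3368 and CG14102, in that order.

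Neither Orange gene held a thresholded summit. cwo, a repressor in the circadian clock, had an intron summit of rank 2616, with rank 5126 in replicate 1 (signal 50.2) and 1833 in replicate 2 (signal 60.2). Hey, a Notch target in neurons, had a single pooled summit, at rank 28589.

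**Figure D3:**
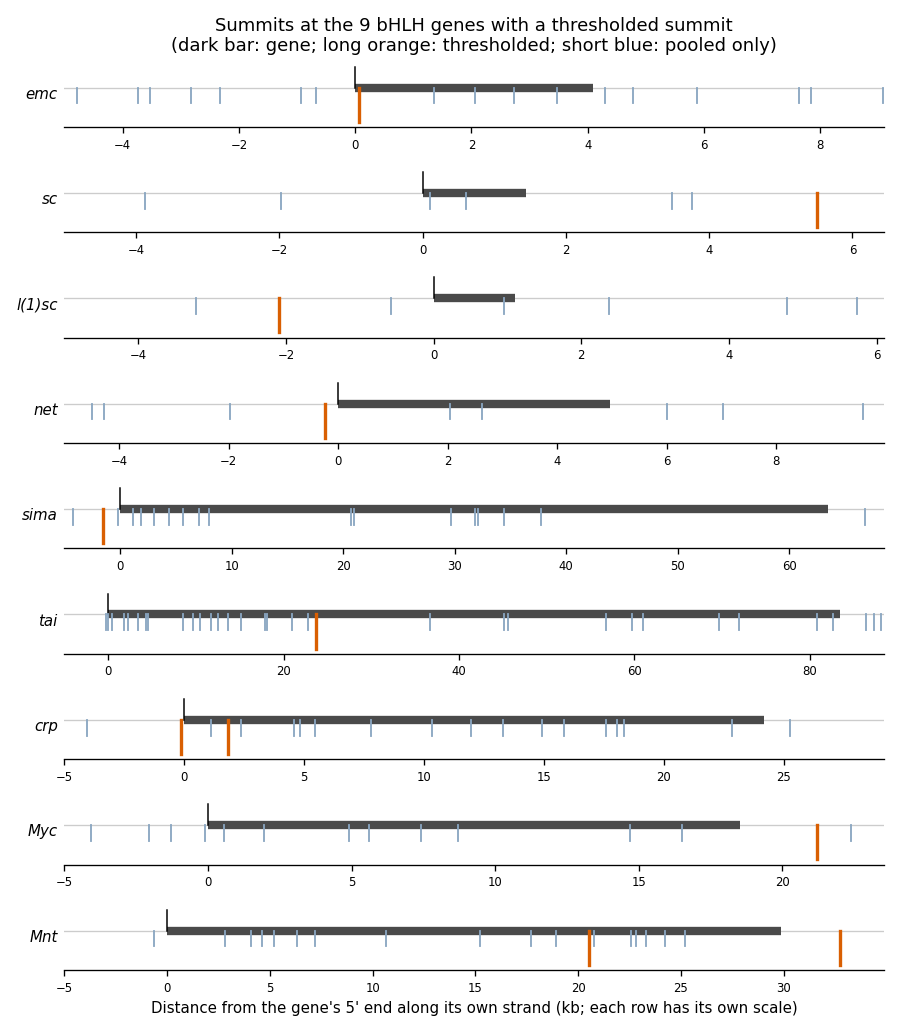
Position of summits along the 9 genes with a thresholded summit, as distance in kb from the gene's 5' end along its own strand, each row on its own scale. Long orange lines are thresholded summits and short blue lines pooled ones. Of the 11 orange lines 4 lie in the gene, 4 before it and 3 past its 3' end.

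Of the 11 thresholded summits, 9 were nearer to a TSS of the bHLH gene than to that of any other protein-coding gene. The exceptions were those at sima and past the 3' end of Mnt. Among protein-coding genes the latter was close to a tie, at 15093 bp from the TSS of Rala and 15179 bp from that of Mnt. An annotated TSS of a gene that is not protein-coding was nearer to it, at 2685 bp. No widened spans of members overlapped, so each summit counts for 1 member. In the 100 bp to each side of the summit, a fork head match was present at 4 of the 11 (36.4%), namely at net, crp, Myc and Mnt, with a 95% Wilson interval of 15.2 to 64.6%, against 43.1% of all thresholded summits. An E-box was present at 4 of the 11 (36.4%), at tai, crp, Myc and Mnt, against 63.3%. CACGTG was at none of the 11, which allows up to 25.9% by the same interval, against 2.07%. These intervals cover counting error alone. Over all 303 pooled summits of the 40 genes the fork head share was 31.7%, against 30.4% of the pooled list, the E-box share 60.7% against 65.5%, and the CACGTG share 4.29% against 2.41%. Every CACGTG also counts as an E-box. Both strands were searched, and a match is a description of the sequence.

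The replicates placed 10 of the 11 summits within 100 bp of one of their own, against 95.6% of the thresholded list. Of the 11, 6 ranked 2031 or better in both replicates, at emc, sc, tai, Myc, and once each at crp and Mnt. The others passed that rank in 1 replicate, and the summit of sima differed most. By gene, the 2031 highest peaks reached 9 of the 40 genes in replicate 1 (22.5%, against 23.9% of all protein-coding genes) and 11 in replicate 2 (27.5%, against 24.6%). The replicates had 7 in common (17.5%), against 18.5% of all protein-coding genes. Of the 9 genes with a thresholded summit, net was reached in replicate 1 alone and l(1)sc in replicate 2 alone. Hand in replicate 1, and Fer1, Mitf and cwo in replicate 2, were reached in 1 replicate without a thresholded summit.

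**Figure D4:**
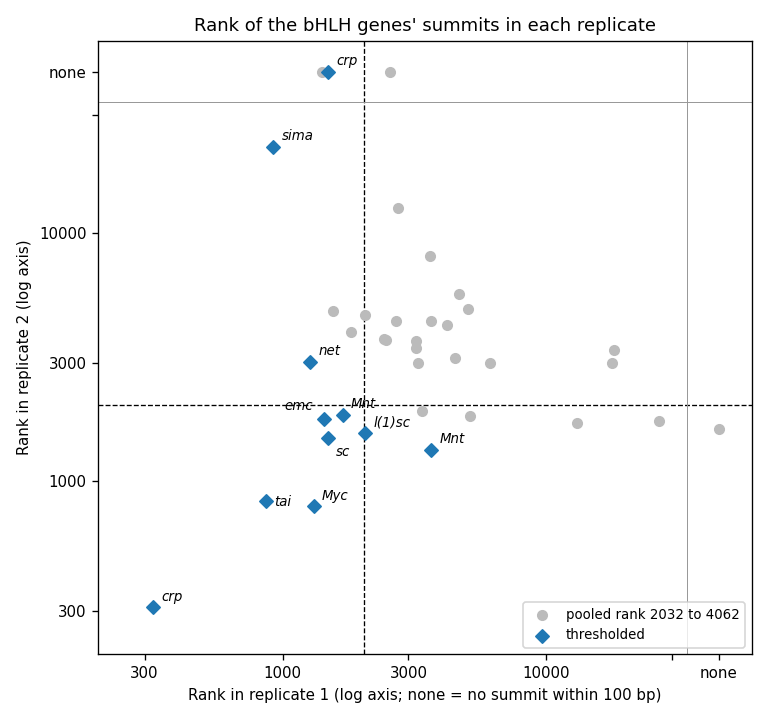
Rank in replicate 1 (horizontal) and replicate 2 (vertical) of the summits at bHLH genes, on log axes, with dashed lines at rank 2031. Blue diamonds are the 11 thresholded summits and grey dots the 26 of pooled rank 2032 to 4062, and points in the outer strips had no summit within 100 bp in that replicate. Of the diamonds 6 lie left of and below the dashed lines, while sima lies at 923 and 22351.

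Just past the threshold, the pooled ranks 2032 to 4062 held 26 summits at 17 of the genes, 9 of which had no thresholded summit. With these ranks included 18 of the 40 genes (45%) were reached, where the share of all protein-coding genes was 41.1%. Of the 26, 8 lay within 1 kb of the member's own TSS and 7 within 1 kb of another gene's TSS that was nearer, with 1 summit each at tai and Max in both counts. The latter included those of da at Cdk1, Hand at Ufd4 and at CYLD, tai at CG9586, Max at Mettl5 and gce at Top1. Peaks counted for these genes are therefore in part peaks at the promoters of their neighbours.

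Over the whole pooled list nearly all of the genes held a summit. In the widened span 39 of 40 did (97.5%), against 89.7% of all protein-coding genes. Within 1 kb of a TSS 32 of 40 did (80%), against 58.6%. The members had a mean of 1.45 TSS positions and all protein-coding genes 1.41. Of the 28 members with 1 TSS, 22 had a pooled summit within 1 kb, against 51.5% of all protein-coding genes with 1 TSS. At TSSs the members' share was thus higher in the list that includes background, and not in the thresholded one. The median rank of the highest pooled summit was 4632 for the 39 genes, against 4693 for the 12507 protein-coding genes that had one.

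**Figure D5:**
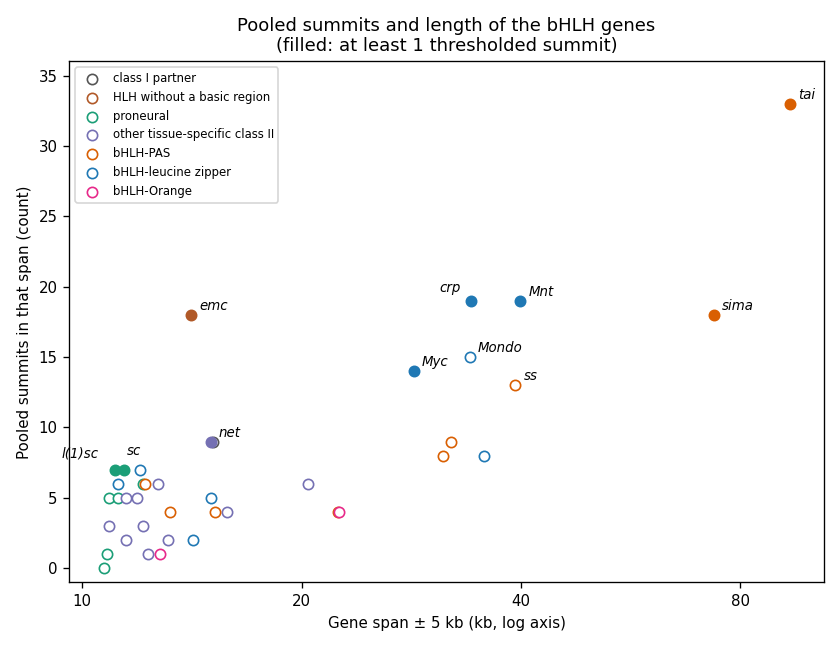
Number of pooled summits in the widened span (vertical) against the length of that span in kb (horizontal, log axis) for the 40 genes, coloured by class. Filled points held a thresholded summit. tai has the most, 33, over 93.4 kb, while emc has 18 over 14.1 kb, as many as sima over 73.5 kb.

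Genes that act with the family were counted the same way, from lists chosen with earlier results of these data known. Of 10 genes of the proneural pathway, 7 held a thresholded summit in the widened span, among them chn, a zinc finger activator of proneural genes (rank 101, signal 495.8), phyl, needed for sense organ fate (rank 178), and insc, of asymmetric neuroblast division (rank 341, signal 311.1). Of 8 circadian clock genes 5 did, with the highest at the kinase gene sgg (rank 569), and per and tim held none. Of 8 further bHLH genes 5 did, led by nau, of the MyoD family (rank 497), hry, a pair-rule gene (rank 692), and sim, the midline regulator (rank 708), and twi held none. Of 5 oxygen and hormone partners EcR (rank 760) and Kr-h1 (rank 1448) did, and Hph, Vhl and usp did not. ase and dpn stand in 2 of these lists. In the widened span sens, nerfin-1, dpn, cry and tx held none either. Within 1 kb of a TSS the counts were 4, 2, 2 and 0 in the order of the lists, against 9.08% of all protein-coding genes. Whether the summits of these genes lay at the TSSs of neighbours is not given here. Each count is to be read against the 23.9% of all protein-coding genes and against length, and no test was made over the lists.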

How the data were processed

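ChIP-seq peak lists of 2 replicates in 1 group were used, with replicate numbers and the assembly (dm6) from the labels. Per the notes deposited with the files, the authors called peaks separately for each replicate and for the replicates together, against a control not analysed here, and thresholded the pooled list for reproducibility. The deposited signal came from the peak caller, as did the deposited −log10 q-value, which only broke ties in rank. Which aligner, caller and threshold were used is not given in the sources used here. Depth is unknown, since no read counts are in the lists.

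Genes and TSSs came from Ensembl release 115, without transposable elements, and sequence from RefSeq's copy of the assembly. All 40 members are accounted for, with each thresholded summit named. Members, classes and lists were chosen with earlier results of these data known. No test was made: the design has no contrast, and genes and summits are not replicates. Counts stand beside those over all 13945 protein-coding genes. Of the partner entries, dbt was matched through its older symbol as dco, and 1 entry was not matched. Assignment of summits to widened spans and matching of the fork head motif were tested on simulated data. Assignment by TSS and matching of the E-box were not tested in this way. Work used Python 3.11.15, pandas 2.3.3 and numpy 2.4.6. The gene nearest to 1 summit is not reported here.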

Additional observations from a re-analysis of the deposited data

How the results depend on the processing

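The count of genes with a thresholded summit in the widened span (9) was 9 to 11 with each replicate alone, 6 with 2 kb on each side (16.1% of all protein-coding genes), 13 with 10 kb (34.3%) and 9 by overlap of the peak interval (24.3%). By nearest TSS it was also 9, but of all protein-coding genes 10.6%, so the closeness to the background does not hold there. Among the 1016 highest peaks it was 2 of 40, a lower share than the 13.3% of all protein-coding genes. In the gene alone it was 4 of 40, a higher share than the 5.92% of all protein-coding genes. The TSS count (3) was 3 with replicate 1 alone (emc, net and crp) and 2 with replicate 2 alone (emc and Fer1). It was 3 with 500 bp, 4 with 2 kb, 3 by overlap, and 0 among the 1016 highest peaks, against 4.47% of all protein-coding genes. The 11 summits became 12 and 13 with each replicate alone, 2 among the 1016 highest peaks, 4 in the genes alone, 7 with 2 kb and 19 with 10 kb. Fewer peaks and narrower or wider spans alter such counts by construction. Whether they account for the size of the changes was not tested. The cause of the changes between replicates was not tested either. The pooled counts were 39 to 40 (span) and 31 to 33 (TSS) with each replicate alone. The share of the 11 summits with one in both replicates was 45.5% within 50 bp, against 77.9% of the thresholded list, and 100% within 200 bp, against 99.6%; the cause was not tested. The fork head share was 27.3% within 50 bp and 63.6% within 250 bp, against 28.1% and 66.2% of the list. The E-box share was 27.3% within 50 bp, against 37.9%, and 81.8% within 250 bp, against 93.0%, which the wider window gives by construction. No paired analysis was possible because there is 1 group. With 2 replicates and no read counts, the precision of a single rank cannot be given.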

Other observations

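Besides those at emc, Myc and the achaete-scute complex, 4 genes had a thresholded summit 5 to 10 kb outside the gene, 3 of them within 1 kb of a neighbour's TSS. Near amos the summit (rank 434, signal 278.2) was 74 bp from the TSS of CG10413, near Fer1 (rank 264, signal 343.5) 110 bp from that of CG10068, and near bigmax (rank 1419, signal 151.8) 176 bp from that of mrt. The exception was Clk, the nearest gene to a summit 6847 bp before its TSS, in an intron of CG32369 (rank 1767, signal 135.1), with 2 fork head matches. It ranked 1557 in replicate 1 and 3511 in replicate 2.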
